A study of Mus musculus with 68 samples.

Results

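The trophectoderm (TE) of mouse blastocysts that had received a morpholino (MO) against Mcrs1 at the zygote stage was compared with control TE. The comparison takes in 4 of the 68 RNA-seq libraries of the series, 2 of Mcrs1 MO TE and 2 of control TE, chosen by their sample titles. A morpholino is a synthetic oligonucleotide that binds a chosen RNA and blocks its translation or splicing. The zygotes of both groups came from superovulated C57BL/6j females mated with C57BL/6j males, were injected, and were cultured to the blastocyst stage, where the TE was separated from the inner cell mass (ICM). The sample labels call the controls control and untreated, while the treatment protocol names a random control morpholino for the same experiment, and the study gives that control a higher concentration than the Mcrs1 morpholino, so the dose differs between the groups together with the target. Each library was made by Smart-seq2 from polyadenylated RNA of 10 blastomeres, and from how many embryos these came is not stated. The study calls the 2 libraries of a group biological replicates, and the labels do not say whether they were injected or sequenced apart. A p-value here sets a difference against the spread between libraries of a group, pooled over the 6 groups of the experiment. Whether that spread covers separate injections is unknown. Values are TPM as deposited, transcript abundances scaled to transcript length and to the library.

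MCRS1, or microspherule protein 1, is a nuclear and nucleolar protein with several known partners. It is a subunit of the NSL complex, which acetylates histone H4 at the promoters of widely expressed genes, and of the INO80 chromatin remodeller, and it also binds the minus ends of kinetochore microtubules in the spindle and takes part in amino acid signalling to mTORC1. The TE is the outer epithelium of the blastocyst, which pumps fluid into the cavity, attaches to the uterus and gives rise to the placenta.

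Between 10198 and 10928 reference genes reached 1 TPM in each of the 4 libraries, out of 24421 listed. Coverage divided by FPKM, which under the formula of StringTie is the number of aligned gigabases, was 1.00 and 2.23 in control TE and 2.25 and 2.09 in Mcrs1 MO TE, so control replicate 1 was the shallowest. The files hold no read counts. The 2 libraries of a group correlated across genes at r = 0.971 in control TE and r = 0.983 in Mcrs1 MO TE. One library of the same experiment held markers of both lineages. In the library labelled ICM control replicate 1 the TE regulator Gata3 was at 1509 TPM, against 63.7 in replicate 2, and Krt18 was at 10274 TPM against 108. The ICM markers Nanog and Tdgf1 were at 561 and 631 TPM in it, against 639 and 989 TPM in replicate 2. In control TE Nanog was at 135 and 175 TPM and Tdgf1 at 0 and 77.2 TPM. The library labelled ICM control replicate 1 is no part of the compared groups, but all 12 libraries of the experiment share one estimate of the spread. Counts of all genes without it were added once its values were known and stand beside the results it moves.

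Mcrs1 lies on chromosome 15 (99242817 to 99251961 in mm10). Its level was 219 and 294 TPM in control TE and 41.1 and 45.5 TPM in Mcrs1 MO TE. Both knockdown libraries lay below both control libraries, a 5.76-fold lower mean (log2 fold change -2.53, SE 0.21, limma adjusted p = 8.7e-04). Max MO TE, the other knockdown of the experiment, held 206 and 194 TPM of Mcrs1, both just below the lower control, and Mcrs1 MO TE was lower than it by a log2 difference of -2.18 (limma adjusted p = 0.00752). The level of Mcrs1 stayed past the threshold in every alternative fit, without each of the 4 compared libraries in turn and without ICM control replicate 1. A morpholino that blocks translation need not lower its RNA, and the files measure RNA only.

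Of 11219 genes with a mean of at least 1 TPM over the 12 libraries, 570 (5.08%) differed at least 2-fold between Mcrs1 MO TE and control TE with a limma adjusted p under 0.05. Of these, 199 (1.77% of the genes tested) were higher and 371 (3.31%) were lower in Mcrs1 MO TE. Throughout, a gene is said to have risen or fallen only when it passed this threshold, and log2 fold changes are on the log2(TPM + 1) scale, which understates the change of low genes. The libraries of the 2 groups did not overlap for 22.0% of genes in the higher direction and for 40.3% in the lower direction. All 570 genes past the threshold were among these, so a lack of overlap adds nothing to a call. The median log2 fold change of all genes tested was -0.24, and only 39% of genes had a positive one, so the medians of gene groups below are to be read against -0.24. Their counts of rises and falls are to be read against 1.77% and 3.31%. Counts of an alternative fit are to be read against those of all genes in the same fit. The balance of rises and falls moved with the scaling. Quantile normalization, which sets the median to -0.01, left 173 rises and 156 falls. The counts also rested on single libraries. They were 44 and 6 genes without Mcrs1 MO replicate 1 and replicate 2, and 35 and 205 without control replicate 1 and replicate 2, in fits where the lone library of a group is assumed to vary as the other groups do. Without ICM control replicate 1 the count was 1289 genes, with 355 higher and 934 lower, and all 570 were among them.

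Across genes, the direction of change went with transcript length. In the shortest quintile of genes, with transcripts of up to 1710 bases, the median log2 fold change was 0.30, and 110 genes rose while 29 fell. In the longest quintile, from 4851 bases, the median was -0.80, and 5 genes rose while 121 fell. The 3 quintiles between them had medians of 0, -0.24 and -0.48. With the trend on length removed from each library, 253 genes were higher and 123 lower, and with the trend on GC content removed 520 were higher and 222 lower. Whether this trend came from the embryos, from the RNA or from the library preparation was not tested, and medians with the trend removed are given beside the gene groups. Medians of gene groups that moved by over 1.5 times without 1 of the 4 compared libraries are given with that library.

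**Figure D1:**
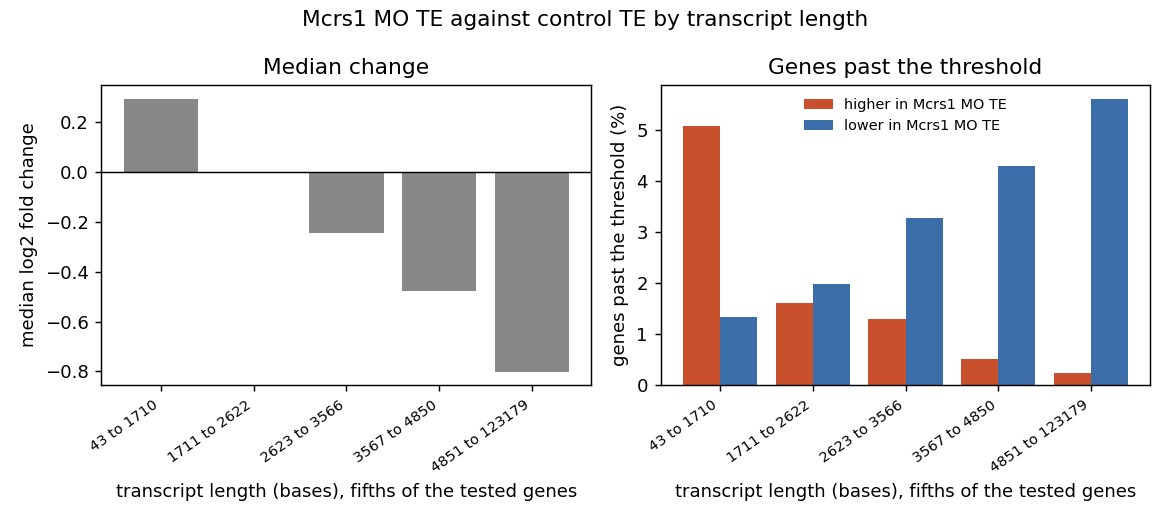
Median log2 fold change of Mcrs1 MO TE against control TE (left, log2 units) and the percentage of genes past the threshold (right), for quintiles of the tested genes ordered by transcript length in bases. The median drops from 0.30 in the shortest quintile to -0.80 in the longest, while the percentage of genes that rose drops from 5.09% to 0.232% and that of genes that fell climbs from 1.34% to 5.61%.

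The largest rises were mostly of genes at low levels in control TE. Spp1, which encodes the secreted integrin ligand osteopontin, was at 22.2 and 147 TPM in control TE and 794 and 746 TPM in Mcrs1 MO TE (log2 fold change 3.71, SE 0.84, limma adjusted p = 0.0301). It was high in both knockdown libraries and varied between the controls, and in Max MO TE it was at 29.5 and 192 TPM, within the range of the controls in one library and above it in the other. Cited1, a transcriptional coactivator needed in the placenta, was at 0.382 and 1.23 TPM in control TE and 18.9 and 24.6 TPM in Mcrs1 MO TE (log2 fold change 3.68, SE 0.58, limma adjusted p = 0.0104). Max MO TE held 19.6 and 22.4 TPM of it. Serpinb1a, a protease inhibitor, rose from 0 and 0.614 TPM to 8.74 and 17.4 TPM (log2 fold change 3.40) and was listed at 0 in both Max MO TE libraries. The difference between the 2 knockdowns was 3.74 for Serpinb1a (limma adjusted p = 0.0717) and 3.33 for Spp1 (limma adjusted p = 0.578), neither past the threshold.

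Xlr, an X-linked lymphocyte-regulated gene family member expressed in germ cells, was at 0 and 0.420 TPM in control TE and 13.7 and 26.9 TPM in Mcrs1 MO TE (4.09, limma adjusted p = 0.0449). Mael, a guardian of the germline against transposons in the piRNA pathway, was at 6.04 and 6.51 TPM in control TE and 85.7 and 54.2 TPM in Mcrs1 MO TE (3.25, limma adjusted p = 0.0284). Rec114, a partner of the meiotic recombination machinery, was at 1.32 and 1.73 TPM in control TE and 19.5 and 16.1 TPM in Mcrs1 MO TE (2.90, limma adjusted p = 0.0331). For all 3 genes the knockdown libraries lay above both controls. Tcl1, a coactivator of the kinase Akt that is abundant in oocytes and cleavage embryos, rose from 0 and 7.12 TPM to 32.3 and 31.7 TPM (3.53, limma adjusted p = 0.0319). Rgcc, a regulator of the cell cycle, went from 0 and 0.985 TPM to 10.8 and 15.5 TPM, and Mogat2, an enzyme of triacylglycerol synthesis, from 0.468 and 1.54 TPM to 18.2 and 17.7 TPM, differences of 3.31 and 3.30 on the log2 scale (limma adjusted p = 0.0104 and 0.0188). The remaining rises among the 12 largest were of genes with no assigned role here, A430089I19Rik (1.76 and 0.402 against 138 and 22.3 TPM), 1700080O16Rik (0 and 2.12 against 31.9 and 33.5 TPM) and Gm2016 (0 and 0.108 against 6.28 and 22.8 TPM). All 3 were higher in both knockdown libraries, and the 2 knockdown libraries of A430089I19Rik differed widely.

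Among abundant genes the rises were smaller. Hsp90aa1, the inducible cytosolic HSP90 chaperone, was at 3362 and 3182 TPM in control TE and 6807 and 6805 TPM in Mcrs1 MO TE (1.06, limma adjusted p = 0.0257). Dppa3, a maternal factor that protects DNA methylation in the early embryo, was at 1926 and 2674 TPM in control TE and 5613 and 6288 TPM in Mcrs1 MO TE (1.39, limma adjusted p = 0.0174). Gsto1, a glutathione transferase, rose from 735 and 761 TPM to 2658 and 2304 TPM (1.72, limma adjusted p = 0.00513), and Cdc20, an activator of the anaphase-promoting complex, from 644 and 587 TPM to 1902 and 1698 TPM (1.55, limma adjusted p = 0.00405). All 4 genes had higher values in both knockdown libraries than in either control, which the choice of abundant genes required. Reads at Mir147, which rose from 702 and 776 TPM to 2318 and 1711 TPM (1.43, limma adjusted p = 0.0177), lie inside AA467197, which rose from 358 and 398 TPM to 1178 and 907 TPM (1.45, limma adjusted p = 0.0171), so its value cannot be told apart from that of its host gene.

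The largest fall was of Rn45s, the locus of the ribosomal RNA precursor. It was at 8374 and 13013 TPM in control TE and 269.6 and 168 TPM in Mcrs1 MO TE, a log2 fold change of -5.61 (SE 0.29, limma adjusted p = 1.0e-05). Max MO TE held 336 and 352 TPM, so the 2 knockdown groups stood together below the controls. The libraries were made from polyadenylated RNA, from which most of this RNA is lost, and whether the difference lies in the cells or in the library preparation was not tested. Sf3a2, a subunit of the U2 snRNP of the spliceosome, was at 68.8 and 87.9 TPM in control TE and 0.764 and 0.977 TPM in Mcrs1 MO TE (log2 fold change -5.40, SE 0.59, limma adjusted p = 0.00276). Max MO TE held 1.78 and 1.14 TPM of it. Cnot3, a subunit of the CCR4-NOT complex that removes the poly(A) tails of mRNAs, was at 66.7 and 71.4 TPM in control TE and 4.22 and 0.962 TPM in Mcrs1 MO TE (log2 fold change -4.45, SE 0.47, limma adjusted p = 0.00259). For both genes the knockdown libraries were far below the controls, and Mir3572, whose reads lie inside Cnot3, fell with it from 18.4 and 16.5 TPM to 1.18 and 0.182 TPM (-3.52, limma adjusted p = 0.00917).

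Further large falls were of a transporter, transcriptional regulators and a signalling kinase. Slc7a8, an amino acid transporter, fell from 29.7 and 18.9 TPM to 0.544 and 0.272 TPM (-4.14, limma adjusted p = 0.0177). Rreb1, a zinc finger transcription factor of the RAS pathway, fell from 25.6 and 35.7 TPM to 1.49 and 1.67 TPM (-3.60, limma adjusted p = 0.0168), and Atn1, a transcriptional corepressor, from 35.7 and 28.7 TPM to 2.37 and 2.51 TPM (-3.26, limma adjusted p = 0.00405). In each of the 3 genes both knockdown libraries were far below both controls. Ripk2, a kinase of the innate immune NOD pathway, fell from 13.8 and 9.82 TPM to 0.472 and 0.0813 TPM (-3.33, limma adjusted p = 0.0263), while Max MO TE held 8.86 and 6.67 TPM, a difference between the knockdowns of -2.79 that was not past the threshold (limma adjusted p = 0.578). Pgc, the precursor of a gastric protease, fell from 23.0 and 28.6 TPM to 1.21 and 1.08 TPM. The small nucleolar RNAs Snord73a (40.4 and 22.9 against 1.2 and 1.61 TPM) and Snora17 (22.3 and 23.0 against 2.85 and 0.538 TPM) and the transcript 9630013K17Rik (13.4 and 7.20 against 0.000900 and 0 TPM) completed the 12 largest falls. Small nucleolar RNAs are encoded within longer host genes, from which their reads cannot be told apart. The groups do not overlap in any of the 24 genes because the choice of the largest rises and falls required it.

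Among abundant genes the falls included Eef1a1, the main factor that brings aminoacyl-tRNA to the ribosome, at 7639.5 and 8161 TPM in control TE and 3232 and 2887 TPM in Mcrs1 MO TE (-1.37, limma adjusted p = 0.00405). Actn4, an actin crosslinker, was at 1539 and 989 TPM in control TE and 362 and 307 TPM in Mcrs1 MO TE (-1.89, limma adjusted p = 0.0198). Both genes were lower in each knockdown library than in each control, which their choice required. Sdc4, a cell-surface heparan sulfate proteoglycan, fell from 1405 and 1626 TPM to 693 and 667 TPM (-1.15, limma adjusted p = 0.0467), and Rps2, a protein of the small ribosomal subunit, from 1714 and 2451 TPM to 967 and 1005 TPM (-1.05, limma adjusted p = 0.0151). Of the 570 genes, 108 (42 higher and 66 lower) were past the threshold in all of the 12 other alternatives in which they were tested, and 6 in all 4 fits without one of the compared libraries. These 6 were Mcrs1, Rn45s, Cnot3, Rps27l, Txnl4b and Ubald1, of which the last 3 were chosen for mention after their values were seen. Rps27l, a p53-induced homologue of a ribosomal protein, was at 267 and 324 TPM in control TE and 1375 and 1069 TPM in Mcrs1 MO TE (2.04, limma adjusted p = 0.00259). Txnl4b, a thioredoxin-like splicing factor, fell from 150.2 and 167 TPM to 27.2 and 30.5 TPM (-2.42, limma adjusted p = 0.00259), and Ubald1 from 505 and 790.5 TPM to 94.5 and 61.8 TPM (-3.03, limma adjusted p = 9.5e-04).

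**Figure D2:**
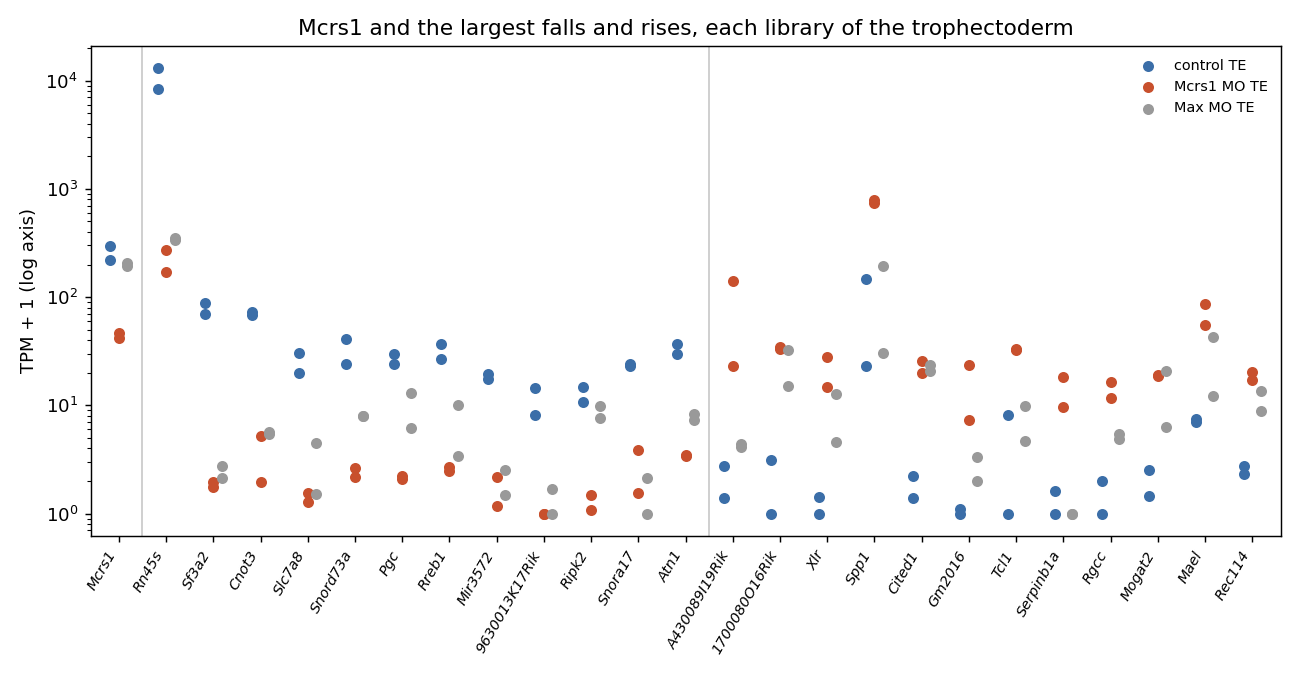
TPM + 1 on a log axis for Mcrs1, the 12 largest falls and the 12 largest rises in Mcrs1 MO TE against control TE, with 1 point for each library of control TE (blue), Mcrs1 MO TE (orange) and Max MO TE (grey). The choice of the 24 genes required that the orange and blue points do not overlap, and the grey points of Sf3a2, Cnot3 and Cited1 lie near the orange ones while those of Mcrs1 lie near the blue ones.

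The partners of MCRS1 were measured next. Of 8 subunits of the NSL complex 0 rose and 0 fell, with a median log2 fold change of -0.67 and of -0.14 with the length trend removed. Kansl3 was at 18.7 and 13.4 TPM in control TE and 5.31 and 4.72 TPM in Mcrs1 MO TE (limma adjusted p = 0.185). Hcfc1 was at 17.4 and 21.0 TPM in control TE and 7.32 and 6.72 TPM in Mcrs1 MO TE (limma adjusted p = 0.101), and the groups overlapped in neither gene. Of 14 subunits of INO80 0 rose and 0 fell, and the median was -0.09, or 0.05 with the length trend removed, and -0.24 and -0.22 without control replicate 1 and replicate 2. Its members furthest from control were Nfrkb (11.4 and 16.1 against 2.33 and 3.29 TPM) and Ino80d (3.78 and 6.62 against 0.929 and 1.03 TPM). Of 31 genes of the spindle and kinetochore fibre, Ran, the GTPase that directs spindle assembly and nuclear import, rose from 529 and 622 TPM to 1225 and 1177 TPM (1.06, limma adjusted p = 0.0157), and Numa1, which anchors spindle poles, fell from 29.1 and 26.9 TPM to 10.9 and 7.58 TPM (-1.52, limma adjusted p = 0.0438). The median of that list was 0.13 (0.29 with the length trend removed), and it was 0.01 without Mcrs1 MO replicate 1, 0.22 without control replicate 1 and 0.08 without control replicate 2. Of 23 tested of 24 genes of mTORC1 and amino acid sensing, Lamtor5, a subunit of the lysosomal Ragulator scaffold, rose from 47.9 and 66.9 TPM to 139 and 135 TPM (1.26, limma adjusted p = 0.0177), and Tsc2, an inhibitor of mTORC1 through Rheb, fell from 20.7 and 15.5 TPM to 4.70 and 3.45 TPM (-1.91, limma adjusted p = 0.0310). Their median of -0.30 turned to 0.06 with quantile normalization and to 0.20 with the length trend removed, and was -0.13 without Mcrs1 MO replicate 2. With 6.45% and 8.7% of their genes past the threshold, these lists stood near the background of 5.08%.

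The proteasome had the highest median of the 41 gene lists as deposited. With the length trend removed primitive endoderm genes were higher, at 0.732 against 0.727, and with the GC trend removed at 1.15 against 1.13. Under quantile normalization the proteasome was at 0.65, below the placental (0.88), primitive endoderm (0.75) and 2-cell stage genes (0.69). The 26S proteasome degrades ubiquitylated proteins and is built from a core of alpha (Psma) and beta (Psmb) subunits and a regulatory cap of ATPase (Psmc) and other (Psmd) subunits. All 31 subunits tested had a positive log2 fold change, 11 rose and 0 fell, and the median was 0.90, or 0.73 with the length trend removed, against -0.24 and 0.02 for all genes. The 11 are 35.5% of the list, against 1.77% of all genes past the threshold in the higher direction. The summed level of the subunits was 12656 and 14970 TPM in control TE and 25198 and 26005 TPM in Mcrs1 MO TE. In each of the 31 genes both knockdown libraries lay above both controls, as they did for 22.0% of all genes. Of the 31 subunits 23 had a limma adjusted p under 0.05, and 12 of these did not reach 2-fold.

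Among the core subunits Psma2 was at 288 and 328 TPM in control TE and 898 and 928 TPM in Mcrs1 MO TE (log2 fold change 1.57, SE 0.17, limma adjusted p = 0.00259). Psmb4 was at 191 and 260.3 TPM in control TE and 618 and 635 TPM in Mcrs1 MO TE (1.49, limma adjusted p = 0.00586), and Psmb3 at 374 and 592 TPM in control TE and 1305 and 1314 TPM in Mcrs1 MO TE (1.47, limma adjusted p = 0.00638). Psma4 was at 289 and 343 TPM in control TE and 819 and 803 TPM in Mcrs1 MO TE (1.36, limma adjusted p = 0.00405). The values of all 4 genes were close between the knockdown libraries, and each was above the higher control. Also past the threshold were the core subunits Psma5, Psma6, Psma7, Psmb2, Psmb6 and Psmb7 and the ATPase Psmc2, named here as the rest of the 11, with log2 fold changes from 1.07 (Psmb2) to 1.25 (Psma6), and Psma7 was the most abundant of them, at 752 and 877 TPM in control TE and 1755 and 1784 TPM in Mcrs1 MO TE. The smallest differences were in the cap, where Psmd2 was at 589 and 611 TPM in control TE and 728 and 735 TPM in Mcrs1 MO TE (0.29, limma adjusted p = 0.360), Psmd1 at 378 and 356 TPM in control TE and 433 and 502 TPM in Mcrs1 MO TE and Psmd3 at 219.8 and 251 TPM in control TE and 324 and 288 TPM in Mcrs1 MO TE. These 3 were named for their rank, after their values were seen, and the sign of Psmd2 turned with quantile normalization, to -0.01. Quantile normalization left 5 subunits past the threshold and removal of the GC trend gave 21. Without one library the count was 3 and 0 (Mcrs1 MO replicates 1 and 2) or 4 and 14 (control replicates 1 and 2), and in each of these fits 0 fell. In Max MO TE, compared with the same control libraries, the median of the list was 0.71, and the direct difference between the knockdowns had a median of 0.21, with 29 of 31 positive and 0 past the threshold.

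**Figure D3:**
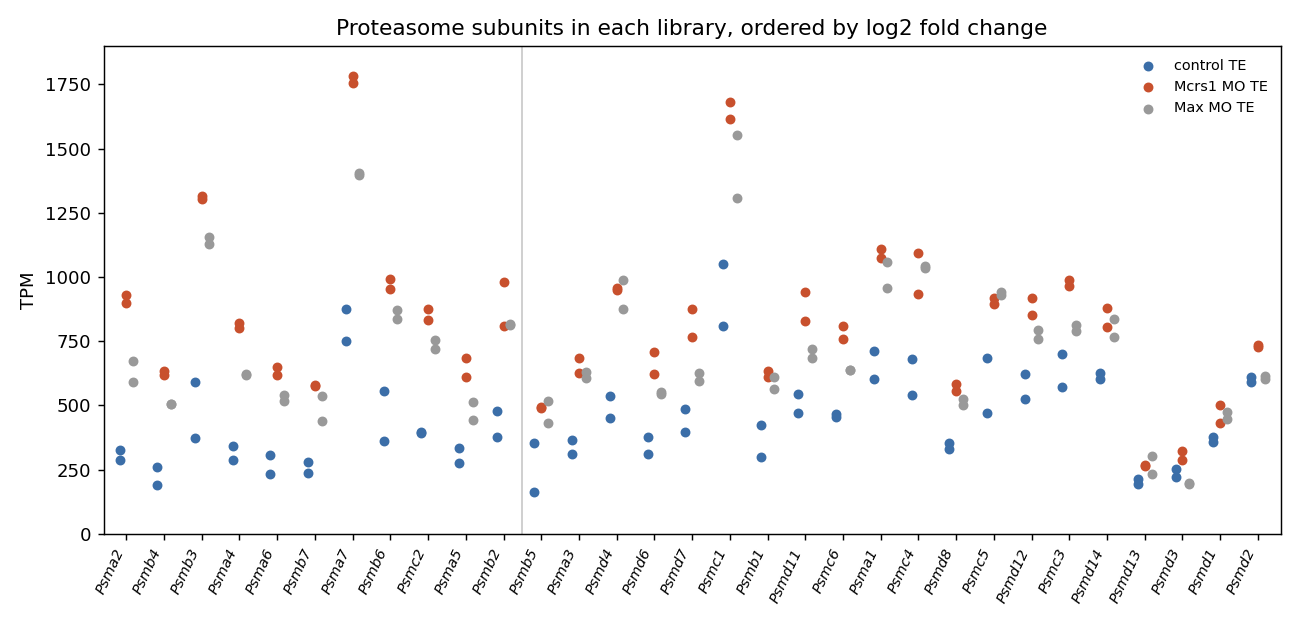
TPM of the 31 proteasome subunits in each library of control TE (blue), Mcrs1 MO TE (orange) and Max MO TE (grey), ordered by log2 fold change, with the 11 subunits past the threshold left of the line. The orange points lie above the blue ones in every subunit, and 46 of the 62 grey points lie between them.

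The promoters of the 4 subunits with the largest rises are printed here, since the members of this list moved together. They are RefSeq sequences of GRCm38.p6, from 250 bases before to 50 bases after the start of the gene, 5′ to 3′ on the strand of the gene, and they lie at chr13:14612992-14613291 (plus strand) for Psma2, chr3:94886909-94887208 (minus strand) for Psmb4, chr11:97703184-97703483 (plus strand) for Psmb3 and chr9:54950609-54950908 (plus strand) for Psma4. Capitals mark matches on either strand to CCAAT, the core of the site of NF-Y, to GCGCNTGCG, a core of the site of nuclear respiratory factor 1, and to TGACNNNGC, the core of the antioxidant response element, none of which contains another.
Psma2: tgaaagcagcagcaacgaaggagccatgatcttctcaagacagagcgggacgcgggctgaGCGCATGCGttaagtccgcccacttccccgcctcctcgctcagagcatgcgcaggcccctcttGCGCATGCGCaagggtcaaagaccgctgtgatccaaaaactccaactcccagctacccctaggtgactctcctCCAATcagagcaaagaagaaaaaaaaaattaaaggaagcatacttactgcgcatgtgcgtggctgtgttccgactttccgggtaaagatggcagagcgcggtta
Psmb4: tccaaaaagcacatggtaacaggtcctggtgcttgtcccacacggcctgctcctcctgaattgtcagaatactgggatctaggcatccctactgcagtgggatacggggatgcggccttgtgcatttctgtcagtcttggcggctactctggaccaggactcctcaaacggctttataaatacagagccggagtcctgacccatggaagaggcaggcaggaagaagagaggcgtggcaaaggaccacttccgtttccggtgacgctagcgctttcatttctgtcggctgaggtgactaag
Psmb3: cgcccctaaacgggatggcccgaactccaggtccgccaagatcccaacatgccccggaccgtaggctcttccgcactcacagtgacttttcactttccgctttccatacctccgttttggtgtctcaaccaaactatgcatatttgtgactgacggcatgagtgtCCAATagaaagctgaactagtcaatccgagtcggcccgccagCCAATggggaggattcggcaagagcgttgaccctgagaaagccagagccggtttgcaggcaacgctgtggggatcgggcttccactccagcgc
Psma4: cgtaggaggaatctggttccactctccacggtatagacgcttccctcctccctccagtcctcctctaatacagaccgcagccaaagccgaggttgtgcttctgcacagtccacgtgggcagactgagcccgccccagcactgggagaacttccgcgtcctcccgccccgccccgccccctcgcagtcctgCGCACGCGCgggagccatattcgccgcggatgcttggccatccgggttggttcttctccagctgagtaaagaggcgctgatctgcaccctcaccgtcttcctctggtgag

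Psma2 held 1 CCAAT and GCGCNTGCG at 2 positions, Psmb3 held 2 CCAAT, Psma4 held 1 GCGCNTGCG and Psmb4 held no match. Of the 31 proteasome subunits 25 had a promoter in the RefSeq table. CCAAT was in 10 of these 25 windows (40.0%), against 40.0% of the 8402 tested genes with a window and 37.9% of all 27025 windows. GCGCNTGCG was in 6 windows (24%), against 15.3% of tested genes and 6.6% of all windows. TGACNNNGC was in 4 windows (16.0%), against 15.2% of tested genes and 12.5% of all windows. A match says only that these letters stand in the window.

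Factors of translation did not move as one group. Of 39 initiation and elongation factors 0 rose and 5 fell, which is 12.8% of the list against 3.31% of all genes. The median was 0.02 (0.04 with the length trend removed) and took either sign, with -0.13 under quantile normalization, -0.10 without control replicate 1 and 0.12 without control replicate 2. Eif4g1, the scaffold of the cap-binding complex, was at 94.1 and 89.1 TPM in control TE and 18.2 and 13.2 TPM in Mcrs1 MO TE (log2 fold change -2.49, SE 0.30, limma adjusted p = 0.00405). Its relative Eif4g2 fell from 537 and 394 TPM to 168 and 130.4 TPM (-1.63, limma adjusted p = 0.00513), and the RNA helicase Eif4a2 from 1083 and 868 TPM to 392 and 451 TPM (-1.20, limma adjusted p = 0.0224). With Eef1a1 and the X-linked Eif2s3x, a subunit of eIF2, these made up the 5, and in all of them the knockdown libraries lay below the controls. Of 22 aminoacyl-tRNA synthetases, which charge tRNAs, 1 fell, the valine enzyme Vars, from 54.4 and 44.0 TPM to 23.6 and 11.7 TPM (-1.50, limma adjusted p = 0.0473), and their median was -0.44, or -0.17 with the length trend removed, -0.08 without control replicate 1 and -0.75 without control replicate 2.

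In the splicing and transcription machinery some subunits rose and others fell. Of 48 core spliceosome genes 4 rose and 4 fell, which is 16.7% of the list against 5.08% of all genes. The median was 0.12 (0.30 with the length trend removed), with -0.05 without Mcrs1 MO replicate 1, 0.22 without Mcrs1 MO replicate 2 and 0.06 without control replicate 1. The rises were of the small ring proteins Lsm5 (33.5 and 47.0 against 117 and 112 TPM, log2 fold change 1.50), Lsm3 (1.21) and Snrpe (1.15) and of the U2 protein Snrpa1 (1.37). The falls were of U2 snRNP subunits, Sf3a2 as given above, Sf3a1 (55.7 and 83.3 against 32.3 and 19.6 TPM, -1.40) and Sf3b4 (-1.35), and of the helicase Snrnp200 (37.5 and 28.4 against 14.5 and 9.63 TPM, -1.39). Of 41 genes of RNA polymerase II and its coactivator Mediator 3 rose and 3 fell, or 14.6% of the list. The median was 0.34 (0.24 with the length trend removed) and 0.18 without control replicate 1. Med25, an activator-binding Mediator subunit, was at 109.6 and 122 TPM in control TE and 25.9 and 11.9 TPM in Mcrs1 MO TE (log2 fold change -2.65, SE 0.41, limma adjusted p = 0.00884). Polr2a, the largest subunit of the polymerase, fell from 9.93 and 18.0 TPM to 2.48 and 1.76 TPM (-2.22, limma adjusted p = 0.0491), and Med19 from 129.5 and 119 TPM to 45.0 and 34.4 TPM (-1.63, limma adjusted p = 0.0174). Med27 rose from 39.5 and 29.4 TPM to 93.7 and 80.2 TPM (1.32, limma adjusted p = 0.0297), as did the small polymerase subunits Polr2f (1.05) and Polr2h (1.22).

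Of 39 genes of the nucleolus and RNA polymerase I, Rn45s fell, and Taf1d, a subunit of the polymerase I selectivity factor, rose from 70.4 and 41.1 TPM to 140.2 and 134 TPM (1.33, limma adjusted p = 0.0424) together with Nhp2, a protein of box H/ACA particles, from 177 and 206 TPM to 419 and 473 TPM (1.22, limma adjusted p = 0.0106). The median of the list was 0.15 (0.30 with the length trend removed), with 0.05 without Mcrs1 MO replicate 1, 0.04 without Mcrs1 MO replicate 2 and 0.09 without control replicate 2, and the change of Rn45s was the largest in it. Of 33 tested of 34 genes of the nuclear pore and of import, Ran rose, and the exportin Xpo1 (-1.42, limma adjusted p = 0.0405) and the importin Ipo7 (-1.13, limma adjusted p = 0.0372) fell. Xpo1 was at 209 and 193 TPM in control TE and 68.6 and 80.8 TPM in Mcrs1 MO TE and Ipo7 at 114 and 80.7 TPM in control TE and 43.2 and 43.1 TPM in Mcrs1 MO TE. The median of this list was -0.22, and it turned to 0.02 with quantile normalization and to 0.31 with the length trend removed, and was -0.11 without Mcrs1 MO replicate 2.

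The transcription factors that set up the TE had the lowest median of the 41 lists as deposited. Of 15 tested of 19 listed, 14 had a negative log2 fold change, the median was -1.05 (-0.57 with the length trend removed), and 1 fell. That was Tfap2c, an AP-2 factor, at 239.5 and 230.3 TPM in control TE and 83.7 and 60.9 TPM in Mcrs1 MO TE (log2 fold change -1.71, SE 0.25, limma adjusted p = 0.00827). In 10 of the 15 genes both knockdown libraries lay below both controls, against 40.3% of all genes. Such a lower level can mean less RNA per cell or fewer cells of the type, which cannot be told apart in bulk samples. The count of falls depended on the ICM libraries, which share the estimate of the spread, and of which ICM control replicate 1 held TE markers at TE levels. With the TE groups fitted alone 7 of the 15 fell, while 1167 of 10756 genes were lower in that fit.

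Gata3, which acts with CDX2 to specify the TE, was at 1582 and 1979 TPM in control TE and 504 and 429 TPM in Mcrs1 MO TE. Its log2 fold change was -1.93, with limma adjusted p = 0.258 over all 12 libraries. ICM control replicate 1 was set apart by its levels of this gene and of Krt18, so a fit without it gives no separate support for TE markers. Cdx2, the caudal-type factor that defines the lineage, was at 68.2 and 54.6 TPM in control TE and 31.4 and 20.3 TPM in Mcrs1 MO TE (-1.24, limma adjusted p = 0.591). Elf5, which maintains trophoblast stem cells, was at 30.4 and 12.1 TPM in control TE and 1.21 and 0.459 TPM in Mcrs1 MO TE (-3.50, limma adjusted p = 0.133). All 3 were lower in both knockdown libraries than in both controls. In Max MO TE Gata3 was at 666 and 541 TPM and Cdx2 at 22.8 and 30.8 TPM, also below the controls. Eomes was at 77.0 and 66.4 TPM in control TE and 37.6 and 39.8 TPM in Mcrs1 MO TE and Tead4 at 77.3 and 84.9 TPM in control TE and 47.0 and 42.6 TPM in Mcrs1 MO TE, differences of -0.87 and -0.84 that did not reach 2-fold. The epithelial keratins differed in direction, with Krt18 at 12846 and 11171 TPM in control TE and 7742 and 8096 TPM in Mcrs1 MO TE and Krt8 at 5944 and 5099 TPM in control TE and 6780.1 and 7001 TPM in Mcrs1 MO TE, and neither passed the threshold (limma adjusted p = 0.843 and 0.886). The summed level of the 8 TE markers was 20864 and 18697 TPM in control TE and 15226 and 15689 TPM in Mcrs1 MO TE, against 205 to 560 TPM for 6 ICM markers in the same libraries.

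**Figure D4:**
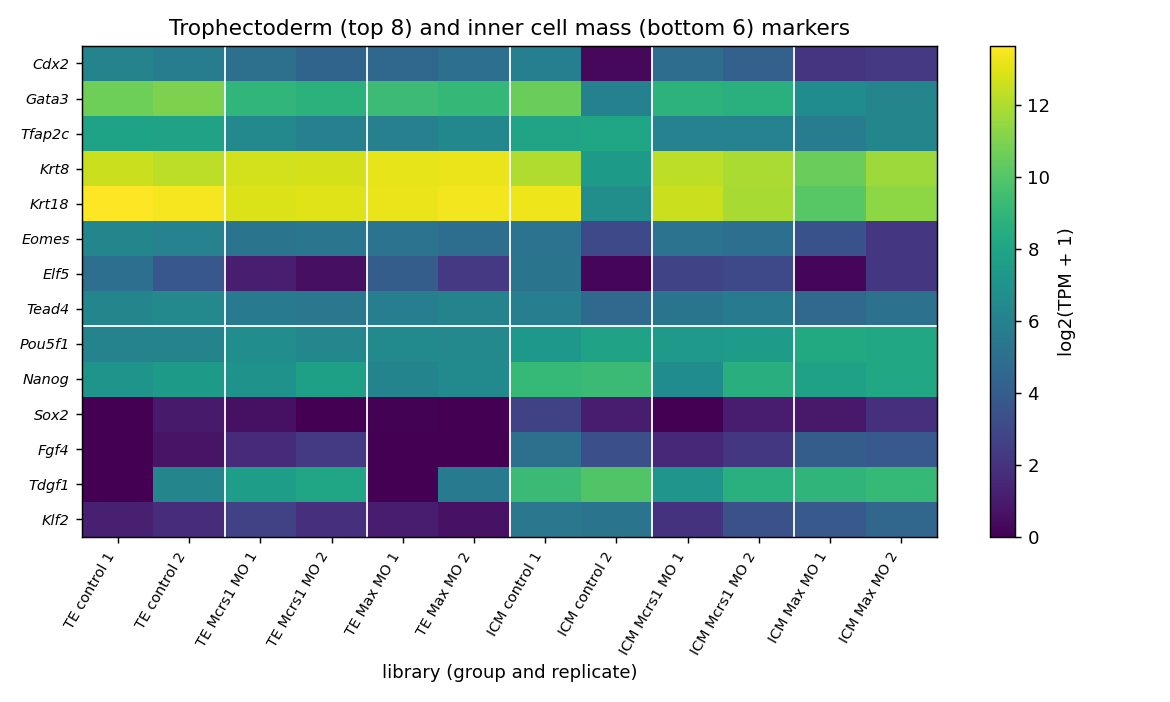
log2(TPM + 1) of 8 trophectoderm and 6 inner cell mass markers (vertical axis) in the 12 libraries of the experiment (horizontal axis), with a colour scale from 0 (dark) upwards. Gata3, Cdx2 and Elf5 are darker in both Mcrs1 MO TE libraries than in the control TE libraries. The library labelled ICM control 1 shows TE markers at TE levels, beside the ICM markers Nanog and Tdgf1 above their levels in control TE.

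Downstream TE genes gave few calls. Of 26 TE effector genes 0 rose and 0 fell, and the median was -0.42 (-0.30 with the length trend removed), with -0.26 without control replicate 1 and -0.17 without control replicate 2. The members furthest from control were S100a6 (0.992 and 1.31 against 9.29 and 4.84 TPM) and Krt7 (91.2 and 72.0 against 31.2 and 17.0 TPM). Of 20 genes of giant cells and placenta only 6 reached the filter, and of these Cited1 rose, with a median of 0.67 (0.46 with the length trend removed). Of 18 tested of 22 genes of the Hippo pathway, which restricts the TE programme to outer cells, Tead2, one of its DNA-binding factors, fell from 37.3 and 50.9 TPM to 10.9 and 13.8 TPM (-1.75, limma adjusted p = 0.0383), and the median was -0.65 (-0.04 with the length trend removed, and -0.39 without control replicate 1).

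The seal of the epithelium was measured by its junction genes. Of 27 genes of tight and adherens junctions 1 rose and 2 fell, 21 had a negative log2 fold change, and the median was -0.90 (-0.31 with the length trend removed, and -0.57 without Mcrs1 MO replicate 2). Of all genes tested, 39% had a positive log2 fold change and 5.08% passed the threshold. Cgn, which encodes the tight junction protein cingulin, was at 249 and 226 TPM in control TE and 65.9 and 66.9 TPM in Mcrs1 MO TE (log2 fold change -1.82, SE 0.35, limma adjusted p = 0.0177). Jup, or plakoglobin, was at 78.7 and 57.5 TPM in control TE and 18.9 and 24.4 TPM in Mcrs1 MO TE (-1.60, limma adjusted p = 0.0297). Cldn6, a claudin, moved the other way and was at 69.6 and 136 TPM in control TE and 363 and 288 TPM in Mcrs1 MO TE (1.73, limma adjusted p = 0.0449). The libraries did not overlap in any of the 3. With the TE groups fitted alone the list had 1 rise and 12 falls, while 375 of 10756 genes were higher and 1167 lower in that fit. With the length trend removed it had 0 and 0, and no member passed without each of the 4 compared libraries in turn.

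Of 13 tested of 19 ion pumps and aquaporins, which move fluid into the cavity, Aqp3 fell from 190.1 and 276 TPM to 87.5 and 75.5 TPM (-1.48, limma adjusted p = 0.0145), and the median was -0.36 (-0.24 with the length trend removed). Of 33 tested of 34 genes of keratins and the actin cytoskeleton 3 fell and 0 rose, with a median of -0.04 (-0.08 with the length trend removed) that ran from -0.21 without control replicate 2 to 0.06 without Mcrs1 MO replicate 2. The 3 falls are 9.09% of the list, against 3.31% of all genes in the lower direction. These were Actn4, Actn1 (23.4 and 21.9 against 5.89 and 3.93 TPM, log2 fold change -2.02) and Myh9, the heavy chain of non-muscle myosin II, at 46.6 and 45.9 TPM in control TE and 6.93 and 7.05 TPM in Mcrs1 MO TE (-2.56, limma adjusted p = 0.0265). Of 23 tested of 32 genes of the matrix, integrins and implantation Spp1 and Sparc rose and 0 fell. Sparc, a matrix protein also made by primitive endoderm, was at 5.78 and 15.0 TPM in control TE and 30.2 and 32.9 TPM in Mcrs1 MO TE (1.64, limma adjusted p = 0.0473). The median of this list was -0.13. It turned to 0.18 with quantile normalization and to 0.22 with the length trend removed, and ran from -0.23 without Mcrs1 MO replicate 1 to 0 without replicate 2.

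Markers of the other cells of the blastocyst were checked beside these. The summed level of 6 ICM markers was 205 and 323 TPM in control TE and 429 and 560 TPM in Mcrs1 MO TE. The marker with the widest difference was Tdgf1, an EGF-CFC coreceptor of Nodal, listed at 0 and 77.2 TPM in the controls and at 193 and 259 TPM in the knockdown, which did not pass the threshold (limma adjusted p = 0.149). The ranges of the other ICM markers lay closer together or low, with Sox2 below 1 TPM in all 4 libraries, Fgf4 at 0 and 0.644 against 2.24 and 3.96 TPM, Klf2 at 1.30 and 2.35 against 5.21 and 2.74 TPM, Pou5f1 at 68.7 and 67.0 against 102 and 78.2 TPM and Nanog at 135 and 175 against 127 and 216 TPM. Of 19 tested of 22 ICM and pluripotency genes Dppa3 rose and 3 fell, and the median was 0.49. With the length trend removed the median was 0.17 and 0 rose and 0 fell, and without Mcrs1 MO replicate 2 it was 0.25. Of the fits without 1 compared library, only the one without control replicate 2 left calls in this list, 2 rises and 1 fall. The falls were of the transcription factors Tbx3 (43.9 and 44.1 against 10.3 and 6.71 TPM, log2 fold change -2.27), Sall4 (368 and 306 against 88.3 and 140.1 TPM, -1.59) and Tfcp2l1 (116 and 112 against 45.8 and 45.5 TPM, -1.30), all of them expressed in control TE. The part of ICM cells in these differences was not tested.

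The 5 primitive endoderm markers summed to 25.6 and 31.0 TPM in control TE and 41.4 and 24.8 TPM in Mcrs1 MO TE, most of it Gata6, at 25.6 and 29.99 against 23.2 and 21.3 TPM. Gata4 (0 and 0 against 1.05 and 0.762 TPM), Sox17 (0 and 0 against 10.1 and 0.977 TPM), Pdgfra (0 and 1.01 against 5.41 and 1.77 TPM) and Foxa2 (0 and 0.0212 against 1.67 and 0 TPM) were at low levels in both groups. Of 17 tested of 20 primitive endoderm genes Sparc rose and 0 fell, with a median of 0.69 (0.73 with the length trend removed) that was 0.15 without Mcrs1 MO replicate 1. The summed level of these genes was lower in the knockdown, 2123 and 1268 TPM in control TE against 740 and 695 TPM in Mcrs1 MO TE. Most of it was Dab2, an endocytic adaptor named after its values were seen, at 2072 and 1201 against 602 and 611 TPM (limma adjusted p = 0.718). All 6 cumulus markers were listed at 0 in the 4 libraries. Only 3 of 15 cumulus and granulosa genes were tested, and 0 of them passed (median -0.70, or -0.11 with the length trend removed, -0.15 without Mcrs1 MO replicate 1 and -0.30 without control replicate 2). Star was at 1.59 and 3.95 against 0.365 and 2.23 TPM and Nr5a2, which embryos also express, was at 12.7 and 17.0 against 8.09 and 9.25 TPM.

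Sterol synthesis genes were measured across the pathway. Of 24 tested, 21 had a negative log2 fold change, 2 fell and 0 rose, with a median of -0.85 (-0.62 with the length trend removed, and -0.51 without control replicate 2). The 2 falls are 8.33% of the list, against 3.31% of all genes in the lower direction. Sqle, the squalene epoxidase, was at 110.0 and 173 TPM in control TE and 26.6 and 41.4 TPM in Mcrs1 MO TE (log2 fold change -2.02, SE 0.45, limma adjusted p = 0.0284). Hmgcs1, the synthase that opens the mevalonate pathway, was at 113 and 212 TPM in control TE and 50.1 and 40.2 TPM in Mcrs1 MO TE (log2 fold change -1.76, SE 0.35, limma adjusted p = 0.0197). In both genes the libraries of the 2 groups did not overlap. In 17 of the 24 genes both knockdown libraries lay below both controls, against 40.3% of all genes. With the TE groups fitted alone the list had 6 falls, while 1167 of 10756 genes were lower in that fit. Without each of the 4 compared libraries in turn no member passed.

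Of 17 tested of 20 amino acid and nucleoside transporters 15 had a negative log2 fold change and 1 fell, with a median of -0.93 (-0.38 with the length trend removed, and -0.45 without control replicate 1). The fall was of Slc38a4, an imprinted sodium-coupled transporter of the placenta, at 328 and 173 TPM in control TE and 103 and 94.3 TPM in Mcrs1 MO TE (-1.27, limma adjusted p = 0.0479). Of 22 tested of 24 genes of the integrated stress response, which ATF4 drives when translation initiation is slowed, 0 rose and 0 fell, although 17 had a negative log2 fold change and the median was -0.75. Among them Mthfd2, an enzyme of mitochondrial one-carbon metabolism, was at 242 and 54.2 TPM in control TE and 19 and 29.3 TPM in Mcrs1 MO TE, and Pycr1, an enzyme of proline synthesis, was at 10.9 and 3.75 TPM in control TE and listed at 0 in both knockdown libraries. With the length trend removed it was -0.85, the lowest of the 41 lists, with the GC trend removed it was -0.35, and it was -0.39 without control replicate 1. With the TE groups fitted alone the list had 1 rise and 4 falls among 20 tested, while 375 of 10756 genes were higher and 1167 lower in that fit.

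Energy metabolism beyond the respiratory chain was measured by list. Of 20 tested of 21 glycolysis genes 0 rose and 0 fell, with a median of -0.10 that turned to 0.02 with the length trend removed and ran from -0.18 without control replicate 2 to -0.03 without Mcrs1 MO replicate 1. Ldha was at 1.72 and 3.23 against 22.9 and 6.43 TPM and Hk1 at 1.69 and 8.17 against 0.347 and 0.497 TPM. Of 27 genes of the TCA cycle and pyruvate dehydrogenase 2 rose and 1 fell, which is 11.1% of the list against 5.08% of all genes. The median was 0.23 (0.20 with the length trend removed). Mpc2, a subunit of the mitochondrial pyruvate carrier, rose from 31.9 and 38.7 TPM to 85.7 and 86.0 TPM (1.26, limma adjusted p = 0.0209), and Sdhd, a membrane anchor of succinate dehydrogenase, from 179 and 208 TPM to 459 and 442 TPM (1.22, limma adjusted p = 0.0137). Dlat, the acetyltransferase of pyruvate dehydrogenase, fell from 174 and 102 TPM to 57.0 and 43.3 TPM (-1.41, limma adjusted p = 0.0223). Of 34 tested of 35 genes of lysosomes and the vacuolar ATPase, the protease Ctsl rose from 147 and 168 TPM to 338 and 444 TPM (1.30, limma adjusted p = 0.00966) and Psap, a precursor of activators of sphingolipid breakdown, fell from 329.7 and 324 TPM to 150.3 and 115 TPM (-1.31, limma adjusted p = 0.0187), with a median of 0.21 (0.22 with the length trend removed) that was 0.04 without Mcrs1 MO replicate 2, 0.13 without control replicate 1 and 0.02 without control replicate 2.

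Genes of oxidant defence and of the p53 pathway had medians above that of all genes. Of 25 tested of 26 antioxidant and metallothionein genes 2 rose and 0 fell, 19 had a positive log2 fold change, and the median was 0.59 (0.53 with the length trend removed). The 2 rises are 8% of the list, against 1.77% of all genes in the higher direction. These were Gsto1, given above, and Gstp1, another glutathione transferase, at 77.5 and 171 TPM in control TE and 435 and 361 TPM in Mcrs1 MO TE (1.77, limma adjusted p = 0.0434). Both were higher in each knockdown library than in each control. Nqo1, a quinone reductase named after its values were seen, was listed at 0 in both controls and at 6.59 and 6.31 TPM in the knockdown and did not pass (limma adjusted p = 0.0666). Of 22 tested of 24 p53 target genes 1 rose and 0 fell, and the median was 0.31 (0.63 with the length trend removed, and 0.50 without control replicate 1). The rise was of Bax, a pore-forming inducer of apoptosis, at 154 and 162 TPM in control TE and 297 and 339 TPM in Mcrs1 MO TE (1.00, limma adjusted p = 0.0157). Cdkn1a, the cell cycle inhibitor p21, was at 34.3 and 24.6 TPM in control TE and 118 and 89.9 TPM in Mcrs1 MO TE (limma adjusted p = 0.218). Pmaip1, which encodes the apoptotic protein NOXA, was at 2.08 and 2.45 TPM in control TE and 34.8 and 16.4 TPM in Mcrs1 MO TE (limma adjusted p = 0.0829). Eda2r, a receptor of the TNF family, was at 4.12 and 2.63 TPM in control TE and 33.1 and 36.9 TPM in Mcrs1 MO TE (limma adjusted p = 0.0720). These last 3, chosen after their values were seen, did not pass. Their libraries did not overlap, as was so for 22.0% of all genes in the higher direction. Of the 22 tested p53 target genes 16 had a positive log2 fold change and 6 a negative one. With the TE groups fitted alone 6 of the 22 rose and 1 fell, while 375 of 10756 genes were higher and 1167 lower in that fit. Without each of the 4 compared libraries in turn no member passed.

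Of 26 tested of 28 cytosolic chaperones Hsp90aa1 rose and Bag3, a cochaperone of HSP70, fell from 170.4 and 153 TPM to 69.4 and 52.4 TPM (-1.41, limma adjusted p = 0.0147), with a median of 0.26 (0.40 with the length trend removed), and of 0.17 without Mcrs1 MO replicate 2 and 0.14 without control replicate 1. Of 27 endoplasmic reticulum chaperones and translocation genes 1 rose and 2 fell, with a median of 0.34 (0.49 with the length trend removed, and 0.22 without control replicate 2). Xbp1, the transcription factor of the unfolded protein response, was at 239.7 and 255 TPM in control TE and 69.5 and 107 TPM in Mcrs1 MO TE (-1.51, limma adjusted p = 0.0223). Ssr2 and Ssr1, subunits of one translocon-associated complex, moved apart, with Ssr2 going from 178 and 221 TPM to 464 and 360.1 TPM (1.04, limma adjusted p = 0.0278) and Ssr1 from 142 and 157 TPM to 72.4 and 73.9 TPM (-1.02, limma adjusted p = 0.0262). The difference of Ssr1 was -0.13 with the length trend removed.

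Of 35 tested of 36 cyclins and cell cycle kinases 3 rose and 0 fell, with a median of 0.06 (0.40 with the length trend removed) that ran from -0.02 without Mcrs1 MO replicate 1 to 0.24 without control replicate 2. The 3 rises are 8.57% of the list, against 1.77% of all genes in the higher direction. Beside Cdc20 these were Cks1b, at 188 and 211 TPM in control TE and 513 and 505 TPM in Mcrs1 MO TE (1.35, limma adjusted p = 0.00550), and Cks2, at 194 and 184 TPM in control TE and 399.9 and 368 TPM in Mcrs1 MO TE (1.02, limma adjusted p = 0.0197), both small subunits that bind cyclin-dependent kinases. The knockdown libraries of all 3 lay above the controls. Of 40 DNA replication genes 1 fell, Pold1, the catalytic subunit of DNA polymerase delta, from 51.3 and 53.5 TPM to 18.6 and 15.8 TPM (-1.56, limma adjusted p = 0.0385), and the median was -0.15, or 0.16 with the length trend removed, and -0.03 without control replicate 2. Of 40 DNA repair genes 0 rose, and Brca1 and Brca2, of homologous recombination, fell. These 2 are 5% of the list, against 3.31% of all genes past the threshold in the lower direction. Brca1 was at 17.4 and 21.5 TPM in control TE and 4.32 and 4.17 TPM in Mcrs1 MO TE (-1.95, limma adjusted p = 0.0237) and Brca2 at 18.0 and 14.5 TPM in control TE and 3.14 and 5.44 TPM in Mcrs1 MO TE (-1.73, limma adjusted p = 0.0473). The median of this list was -0.46 (-0.13 with the length trend removed).

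Germline genes and genes of the 2-cell stage are silent in most tissues. Of 27 tested of 37 germline genes Xlr and Mael rose and 0 fell, with a median of 0.20 (0.61 with the length trend removed) that was 0.40 without control replicate 1 and 0 without control replicate 2. The X-linked Xlr genes share near-identical copies among which reads could be split. Of 7 tested of 29 genes of the 2-cell stage 0 rose and 0 fell, and the median was 0.66 (0.26 with the length trend removed) but 1.01 without Mcrs1 MO replicate 1, 0.03 without replicate 2 and 0.20 without control replicate 1. Usp17le was at 0.220 and 0 against 2.50 and 4.70 TPM and Obox6 was at 4.60 and 10.3 against 6.63 and 29.9 TPM. Of 21 tested of 36 imprinted genes 2 rose and 1 fell, and the median of -0.55 became 0.01 with the length trend removed and -0.34 without Mcrs1 MO replicate 1. Sgce, a paternally expressed sarcoglycan, was at 5.54 and 4.33 TPM in control TE and 26.3 and 27.3 TPM in Mcrs1 MO TE (2.24, limma adjusted p = 0.0473), and Commd1 was at 79.5 and 90.2 TPM in control TE and 236 and 187 TPM in Mcrs1 MO TE (1.30, limma adjusted p = 0.0150). Both were higher in each knockdown library than in each control, and the fall was of Slc38a4. Phlda2, an imprinted regulator of placental growth named after its values were seen, was listed at 0 in both controls and at 3.84 and 17.9 TPM in the knockdown and did not pass (limma adjusted p = 0.0975).

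Signal genes were counted by pathway. Of 23 tested of 30 FGF and MAPK genes 2 fell and 0 rose, with a median of -0.55 (-0.44 with the length trend removed). The 2 falls are 8.7% of the list, against 3.31% of all genes in the lower direction. They were Sos1, the exchange factor for RAS, from 16.6 and 8.32 TPM to 1.09 and 2.46 TPM (-2.25, limma adjusted p = 0.0449), and Frs2, the docking protein of FGF receptors, from 39.0 and 31.8 TPM to 8.87 and 11.7 TPM (-1.69, limma adjusted p = 0.0351). Of 26 tested of 38 Nodal, BMP and Wnt genes the ligand Wnt6 fell from 29.8 and 40.4 TPM to 4.96 and 7.66 TPM (-2.31, limma adjusted p = 0.0267), with a median of -0.48 (-0.20 with the length trend removed). Of 16 tested of 30 interferon response genes 0 rose and 0 fell, and the 2 furthest from control were Stat2 at 3.65 and 7.95 against 1.14 and 0.0701 TPM and Oas1a at 5.01 and 9.89 against 1.45 and 1.57 TPM. The median of -0.10 turned to 0.15 with quantile normalization and to 0.29 without control replicate 2, and was -0.24 with the length trend removed, -0.23 without Mcrs1 MO replicate 1 and -0.43 without control replicate 1. In all, the 41 lists held 970 distinct tested genes, of which 42 rose and 43 fell, and 33 lists had at least 1 gene past the threshold. Of all 11219 genes tested, 199 (1.77%) rose and 371 (3.31%) fell, and the lists were chosen with earlier results of these data known.

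**Figure D5:**
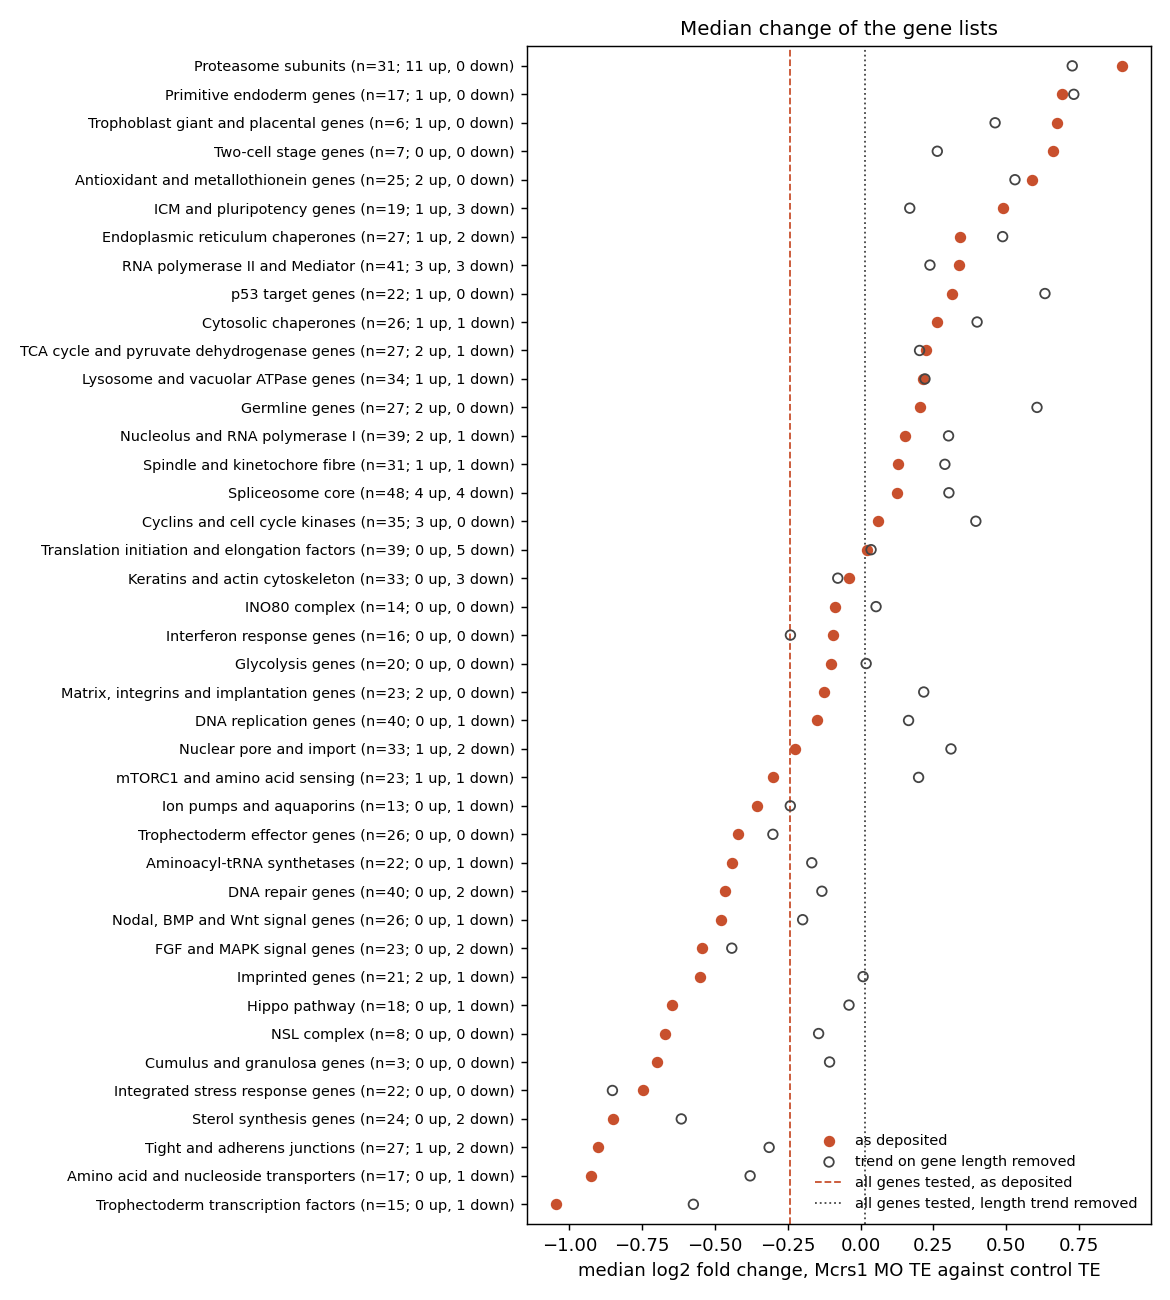
Median log2 fold change of each gene list, Mcrs1 MO TE against control TE, as deposited (filled) and with the trend on gene length removed (open), with the number tested, risen and fallen beside each name and the medians of all genes tested as vertical lines (-0.24 dashed, 0.02 dotted). Proteasome subunits lie furthest right at 0.90 and trophectoderm transcription factors furthest left at -1.05.

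The Mcrs1 knockdown was then set against the Max knockdown of the same experiment. The control libraries do not enter this difference, but they share in the estimate of the spread. The study gives the Max morpholino a higher concentration than the Mcrs1 morpholino, so the dose differs here too. Max is the dimerization partner of the MYC family, and Max MO TE had 2 libraries. Between the 2 knockdowns 3 of 11219 genes (0.0267%) passed the threshold, all lower in Mcrs1 MO TE, and 617 had an unadjusted p under 0.05. They were Mcrs1 and the class I histocompatibility genes H2-D1 and H2-L, which present peptides on the cell surface. H2-D1 was at 249 and 328 TPM in control TE and 122 and 138 TPM in Mcrs1 MO TE and at 395 and 376 TPM in Max MO TE. H2-L was at 304 and 422 TPM in control TE and 151 and 167 TPM in Mcrs1 MO TE and at 489 and 474 TPM in Max MO TE. Both were lowest in Mcrs1 MO TE and highest in Max MO TE with no overlap among the 3 groups. The differences between the knockdowns were -1.56 (limma adjusted p = 0.0309) and -1.60 (limma adjusted p = 0.0309). H2-D1, on chromosome 17 from 35263094 to 35267497, and H2-L, from 35263123 to 35266730, overlap, so their reads cannot be told apart and they make a single observation. Against control TE they fell as well, by 1.13 and 1.17 on the log2 scale (limma adjusted p = 0.0145 and 0.0142). Without either Mcrs1 MO library 0 genes passed between the knockdowns.

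The 2 knockdowns share their control libraries, and their values against control are given side by side. Sf3a2 had log2 fold changes of -5.40 and -5.02 for Mcrs1 MO and Max MO, Cnot3 of -4.45 and -3.64, Cited1 of 3.68 and 3.65 and Eef1a1 of -1.37 and -1.31. In the same order, list medians were -1.05 and -1.17 for TE transcription factors and -0.67 and -0.83 for the NSL complex. They were -0.85 and -0.81 for sterol synthesis and 0.59 and 0.52 for antioxidant genes. Further apart were ICM and pluripotency genes (0.49 and -0.41) and integrated stress response genes (-0.75 and -0.08). The response to Mcrs1 MO was also compared between TE and ICM by an interaction term. There 0 genes passed the threshold in limma, and 972 had an unadjusted p under 0.05. Without ICM control replicate 1 the count moved widely, but control ICM was then replicate 2 alone. That replicate correlated with the other libraries of the experiment at r = 0.893 to 0.918. The comparison of lineages thus rested on which ICM control library was kept. For Mcrs1 itself the difference between lineages was -0.73 (limma adjusted p = 0.555).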

How the data were processed

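RNA-seq of 12 libraries of morpholino-injected mouse blastocysts was used, of which 2 of Mcrs1 MO TE and 2 of control TE were compared. Per the submitters' processing notes, reads were handled with cutadapt 1.16, HISAT2, StringTie, Cufflinks and deepTools on mm10. The authors deposited, for each library, a StringTie gene table with Coverage, FPKM and TPM and no read counts. The deposited TPM column was treated as a score, because assembled loci sum to 1000000 and reference genes are listed beside them, with reference genes holding 89.6% to 93.9% of that total in the compared libraries. TPM of named genes was summed per symbol. The deposited FPKM and Coverage (signal) columns served only for depth, and since depth in reads is unknown no counting interval is given.

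log2(TPM + 1) of 11219 genes with a mean of at least 1 TPM over the 12 libraries was fitted with limma 3.58.1 (R 4.3.3), as 6 group means with a moderated spread that follows the mean level. A gene was called at a Benjamini-Hochberg adjusted p under 0.05 and at least 2-fold. All limma tests were two-sided. The study used DESeq2, which needs counts and was not run. With 2 libraries against 2, an exact permutation test cannot reach the threshold, so every p rests on the spread pooled over the 6 groups. The scripts were tested on simulated data.

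The comparison, the gene lists and their members were chosen with earlier results of these data known. Named were Mcrs1, the 12 largest rises and 12 largest falls with a mean of at least 5 TPM and no overlap, the 6 most abundant rises and falls, up to 4 members past the threshold in each list (or 2 where none passed) and the cell type markers. Length and GC content of the longest GENCODE vM21 transcript were available for 10791 genes (96.19%), and trends on them were removed by lowess with a span of 0.3. Python 3.11.15, pandas 2.3.3, numpy 2.4.6 and matplotlib 3.10.9 were used. The alternatives were pseudocount, filter, scaling, the set of libraries fitted, a replicate block, no mean trend, the handling of repeated symbols, length, GC and leaving out libraries.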

Additional observations from a re-analysis of the deposited data

How the results depend on the processing

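For Mcrs1 MO TE against control TE, 570 genes became 329 with quantile normalization, 376 with the length trend removed, 1542 (375 higher, 1167 lower) with the TE groups fitted alone, 1302 with the 2 compared groups alone, 1289 without ICM control replicate 1, and 6 to 205 without one of the 4 compared libraries. The other alternatives gave 383 to 742. For Mcrs1 MO TE against Max MO TE, 3 genes became 13 with every gene above 0 kept, 0 without the mean trend, 5 without ICM control replicate 1, and 0 to 4 without one compared library. For the response in TE against that in ICM, 0 genes became 1 with a pseudocount of 0.1, 24 with every gene above 0 kept and 830 without ICM control replicate 1, and the fits of TE groups alone cannot give it. The difference of Mcrs1 stayed past the threshold throughout, from -2.06 (GC trend removed) to -2.74.

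Replicate numbers are in the labels, and same-numbered libraries of the compared groups did not deviate together across genes (r = -0.037). With 2 libraries a group this cannot tell whether they shared an injection or a sequencing run. With a replicate block 525 genes passed (192 higher, 333 lower), 492 of them among the 570, the other 2 comparisons gave 4 and 0, and Mcrs1 had a limma adjusted p of 0.00182 with the block.

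Among named genes past the threshold, 200 of 1112 values under alternatives with all compared libraries were no longer past it, and 303 of 465 with one compared library left out, and none changed direction. The causes were not tested. The files give no counts, so the depth behind low values is unknown.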

Other observations

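The following genes were chosen after their values were seen, and the labels do not give the sex of the embryos.
Xist, the RNA that silences one X chromosome in female cells, fell from 46.5 and 21.0 TPM in control TE to 6.54 and 3.71 TPM in Mcrs1 MO TE (log2 fold change -2.44, limma adjusted p = 0.0387), and stood at 5.03 and 2.60 TPM in Max MO TE.
The Y-linked Eif2s3y rose from 38.5 and 47.4 TPM to 106 and 122 TPM (1.39, limma adjusted p = 0.0170), while its X-linked partner Eif2s3x fell from 240.5 and 173 TPM to 104 and 90.0 TPM (-1.07, limma adjusted p = 0.0360).
The Y-linked Ddx3y was at 59.0 and 43.0 TPM in control TE and 39.4 and 41.1 TPM in Mcrs1 MO TE (limma adjusted p = 0.776).
The Y-linked Kdm5d and Uty did not pass either, with Kdm5d at 2.22 and 2.69 against 0.179 and 0 TPM (-1.67, limma adjusted p = 0.155) and Uty at 3.21 and 7.68 against 3.47 and 4.52 TPM (-0.28, limma adjusted p = 0.853).
The part of embryo sex in the comparison was not tested.

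Reads at 3 microRNAs of the Mir17 cluster, Mir17 (6.58 and 5.04 TPM), Mir18 (6.48 and 4.74 TPM) and Mir20a (8.47 and 3.93 TPM), were present in control TE and listed at 0 in both Mcrs1 MO TE libraries.
Their host transcript Mir17hg was at 9.62 and 12.3 TPM in control TE and 3.47 and 5.04 TPM in Mcrs1 MO TE and did not pass the threshold (limma adjusted p = 0.171), and in libraries of polyadenylated RNA such reads come from the precursor, not from mature microRNAs.
The class I gene H2-T24 fell from 21.0 and 19.1 TPM to 1.45 and 1.06 TPM (log2 fold change -3.23, limma adjusted p = 0.0137), and was at 2.37 and 3.52 TPM in Max MO TE. Between the knockdowns H2-T24 differed by -0.80 and the class I gene H2-K1 by -0.79, and neither passed (limma adjusted p = 0.982 and 0.962).
The nucleoside diphosphate kinase Nme1 rose from 237 and 264 TPM to 621 and 693 TPM (1.39, limma adjusted p = 0.00375).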
